A study of Rattus norvegicus with 8 samples.

Results

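Lipolysis releases fatty acids from the triglyceride of fat cells, and the genes described here encode its enzymes, their partners and the adrenergic pathway that controls them. The gene set was given by name as Pnpla2, Lipe, Mgll, Abhd5, G0s2, Adrb3, Pde3b, Prkar2b and Acvr1c, and each gene was taken where a deposited table listed exactly that symbol. Of these 9 names, 8 were found among the 18513 genes listed in either table, with 8 in the adipocyte table and 7 in the precursor table. Acvr1c was found in the adipocyte table alone, and Pnpla2 was not analysed here. None of the 8 symbols occurred on more than 1 row.

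The cells came from the inguinal fat of Wistar rats (genotype WT, per the labels) that had eaten a high-fat sucrose (HFS) diet or a control (C) diet for 6 months. Adipose-derived stem cells (ASC), the cultured precursors of fat cells, were freed from the tissue with collagenase and grown in serum, and adipocytes (AD) were made from them. Differentiation took 3 days in medium with 5.0 µM dexamethasone (a glucocorticoid), 0.5 mM 3-isobutyl-1-methylxanthine (an inhibitor of phosphodiesterases) and 10.0 µg/mL insulin, then 7 days with insulin alone. RNA sequencing gave 8 libraries, 2 each of AD_HFS, AD_C, ASC_HFS and ASC_C. The labels give neither sex nor age of the rats and do not tie the paired libraries to different animals or cultures. The spread between these libraries may therefore be technical. Each p sets a difference against that spread, which limma draws in part from other genes.

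In a fat cell, noradrenaline acts on beta-adrenergic receptors such as the product of Adrb3, cAMP rises, and protein kinase A phosphorylates hormone-sensitive lipase and the droplet coat. Adipose triglyceride lipase, hormone-sensitive lipase and monoacylglycerol lipase then act in turn on triglyceride, diglyceride and monoglyceride. Insulin opposes this through the phosphodiesterase encoded by Pde3b, which breaks down cAMP.

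The deposited values were turned back into reads, which came to between 76083827 and 119555051 in the AD libraries and between 992618 and 7290961 in the ASC libraries. The shallowest library was ASC_HFS replicate 2, where 3 reads, the limit that a count of 0 allows, equal 10.9 normalized reads. This floor and the intervals of few reads below cover counting error only. Markers of adipocytes took 2.42 to 2.46% of reads in AD_HFS and 1.98 to 2.56% in AD_C, against 0.323 to 0.462% in ASC_HFS and 0.104 to 0.453% in ASC_C (9 of 10 markers listed). All 9 mesenchymal progenitor markers had reads in every library, at 0.251 to 0.253% in AD_HFS, 0.220 to 0.294% in AD_C, 0.289 to 0.357% in ASC_HFS and 0.263 to 0.291% in ASC_C. Macrophage markers rose with HFS (5 of 10 called in AD and 9 of 10 in ASC by limma-trend), at 0.363% in both AD_HFS libraries against 0.0400 and 0.0767% in AD_C, and 0.288 to 0.312% in ASC_HFS against 0.0895 to 0.0906% in ASC_C. Endothelial markers took 0.0987 to 0.0991% in ASC_HFS against 0.0209 to 0.0439% in ASC_C, and epithelial and mammary markers 0.126 to 0.150% against 0.0107 to 0.0145%. Lymphoid markers took 0.00255 to 0.00264% in AD_HFS against 0.000519 to 0.000705% in AD_C, and 0.00983 to 0.0141% in ASC_HFS against 0.00359 to 0.00464% in ASC_C. Mast cell markers (4 of 7 listed) took 0.00383 to 0.00465% in ASC_HFS against 0.0184 to 0.0273% in ASC_C. The markers went both ways, since limma-trend called 2 of the 4 higher and 1 lower in ASC_HFS. Of all genes, 9.41% were called higher and 9.70% lower in ASC, and 1.34% were called in either direction in AD. Smooth muscle and pericyte and thermogenic adipocyte markers each stayed under 0.0876% in all 8 libraries.

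Every gene of the set that both tables list was higher in adipocytes than in precursors. The levels here are in RPM, the reads of a gene per 1000000 reads of the library on the 14018 genes that both tables list. The tables were normalized separately and stage and table are the same split, so these levels are a description and were not tested. Lipe, the gene of hormone-sensitive lipase, had 580 and 547 RPM in AD_HFS, 466 and 538 in AD_C, 70.6 and 55.4 in ASC_HFS and 13.2 and 47.6 in ASC_C. The AD mean of Lipe was thus 8.94-fold the ASC mean with HFS and 16.5-fold with C. In bulk RNA, fewer cells of a type and less RNA per cell cannot be told apart. For 7 of the 7 genes that both tables list, all 4 AD libraries lay above all 4 ASC libraries, which was so for 22.4% of the 14018 genes. The median AD to ASC ratio over all genes with reads was 1.15 with HFS and 0.899 with C.

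The size of this stage difference was not the same for each gene. Prkar2b, which encodes a regulatory subunit of protein kinase A that is abundant in fat, was 12.4-fold higher in AD with HFS and 11.7-fold with C. Pde3b was 11.8-fold and 19.2-fold higher, and Mgll, the gene of monoacylglycerol lipase, 6.66-fold and 10.4-fold. G0s2, whose small protein inhibits adipose triglyceride lipase, was 10.7-fold higher with HFS and 6.30-fold with C. In RPM, G0s2 and Prkar2b were the 2 genes whose ratio was larger with HFS. For Prkar2b the order depended on the scale. On reads divided by the size factor within each table its ratio was 332 with HFS and 356 with C. Abhd5, whose protein activates the same lipase, had the smallest ratios of the 7 genes, 2.67-fold with HFS and 3.38-fold with C, and was at 187 and 186 RPM in ASC_HFS and 104 and 150 in ASC_C. Adrb3 was at 12.7 and 10.8 RPM in AD_HFS and 6.49 and 17.4 in AD_C, against 3.59 and 2.02 in ASC_HFS and 0.599 and 0.960 in ASC_C. The ASC values of Adrb3 rest on 21 and 2 reads in ASC_HFS and 2 and 7 reads in ASC_C, so its stage ratio is imprecise. Acvr1c encodes the activin receptor-like kinase ALK7, a receptor of fat cells that is reported to restrain lipolysis in mice. It had 10.2 and 10.4 RPM in AD_HFS and 9.95 and 10.7 in AD_C.

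**Figure D1:**
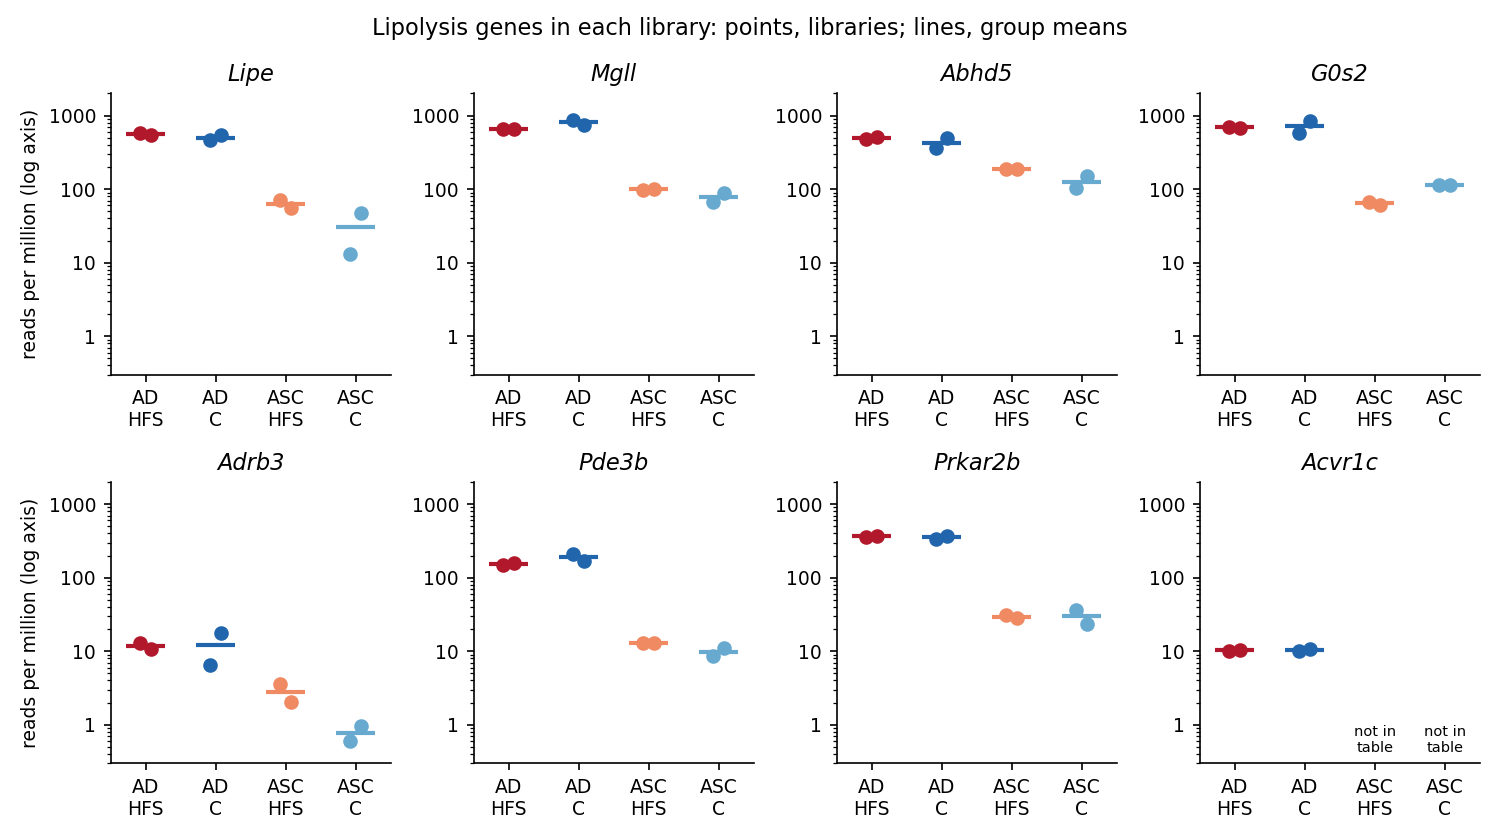
RPM (log axis, the same range in each panel) of the 8 genes in each library, with points for libraries and lines for group means. In the 7 panels with both stages the AD libraries lie above the ASC libraries. The AD_C points of Adrb3 lie apart, at 6.49 and 17.4, while those of Acvr1c lie between 9.95 and 10.7 and Acvr1c has no ASC values.

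The sequence before the gene start is shown for 3 of the genes that were higher in AD: G0s2 and Abhd5, the inhibitor and the activator of the same lipase, and Mgll. RefSeq promoters of the rat build GRCr8 were matched by symbol for 5 of the 8 genes (Mgll, Abhd5, G0s2, Prkar2b and Acvr1c). Each line gives the 250 bases upstream of the annotated start, 5′ to 3′ on the strand of the gene, at chr13:107335949-107336198 (minus strand), chr8:130877622-130877871 (plus strand) and chr4:122749186-122749435 (plus strand). Capitals mark matches to the motifs named after the sequences, on either strand.
G0s2: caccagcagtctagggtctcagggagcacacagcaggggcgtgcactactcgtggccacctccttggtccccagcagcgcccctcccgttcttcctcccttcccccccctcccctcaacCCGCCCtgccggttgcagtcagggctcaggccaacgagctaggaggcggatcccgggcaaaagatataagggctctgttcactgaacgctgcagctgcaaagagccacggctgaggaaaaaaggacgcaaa
Abhd5: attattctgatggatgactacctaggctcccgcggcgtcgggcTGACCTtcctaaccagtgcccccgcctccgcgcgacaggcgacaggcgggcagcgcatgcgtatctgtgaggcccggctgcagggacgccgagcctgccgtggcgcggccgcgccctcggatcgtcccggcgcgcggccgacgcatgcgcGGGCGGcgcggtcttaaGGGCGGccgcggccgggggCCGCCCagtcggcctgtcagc
Mgll: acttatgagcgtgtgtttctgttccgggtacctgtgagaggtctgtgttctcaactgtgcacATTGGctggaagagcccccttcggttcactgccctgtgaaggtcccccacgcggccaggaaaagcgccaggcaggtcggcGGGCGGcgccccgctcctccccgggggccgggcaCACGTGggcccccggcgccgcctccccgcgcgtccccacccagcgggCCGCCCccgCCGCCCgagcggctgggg
The motifs searched, on both strands, were the GC box GGGCGG, the CCAAT box CCAAT, the TATA box TATAAA, the cAMP response element TGACGTCA and its short form TGACG, the C/EBP site TTGCNNCAA, the nuclear receptor core AGGTCA and the E-box CACGTG. The short form TGACG is contained in TGACGTCA. GC boxes were found in all 5 windows, with 1 in G0s2, 3 in Abhd5 and 3 in Mgll, and in 30.5% of the 33469 windows of this length in RefSeq. Abhd5 held 1 nuclear receptor core, present in 14.1% of windows, and Mgll 1 E-box (5.59%) and 1 CCAAT box (34.0%). The TATA box (12.9% of windows), the cAMP response element (1.59%), its short form (18.2%) and the C/EBP site (1.75%) had no match in the 5 windows. The bases were 62.8% G or C in G0s2 and 72.4% in Mgll, and the median over all windows was 51.2%. These matches describe letters only.

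The comparison of HFS with C in precursors asked how the diet of the rat was reflected in cells that had not been differentiated. Of the lipolysis genes, Lipe rose in ASC_HFS. The other 6 did not pass the test, and of these Mgll, Abhd5, Adrb3, Pde3b and Prkar2b had higher and G0s2 lower means in ASC_HFS. Thus 1 of 7 genes was called by limma-trend, where 19.1% of all 14295 genes were called (p adjusted by the Benjamini-Hochberg method across the whole table, threshold 0.05). By limma-voom on the recovered reads, which left out Adrb3 for its few reads, it was 1 of 6, where 24.5% of all genes were called. An unadjusted p under 0.05 was reached by 2 of 7, Lipe and Abhd5, and by 33.3% of all genes. The median log2 difference was 0.37 over the 7 genes and -0.04 over all genes. The HFS and C libraries did not overlap for 6 of the 7, where this was so for 61.0% of all genes. Values below are normalized reads, which are reads divided by the size factor of the library within its table. Log2 differences are on the deposited scale, which compresses genes with few reads.

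Lipe had 258 and 199 normalized reads in ASC_HFS, against 40.8 and 156 in ASC_C. Both HFS libraries were above both C libraries, and ASC_C replicate 1 stood far below the other 3. The mean was 228 ± 41.1 in ASC_HFS and 98.2 ± 81.2 in ASC_C (SD, n = 2 each), a ratio of 2.33 and a log2 difference of 0.99 ± 0.32 (SE, limma-trend adjusted p = 0.0453). Of the 13.7 degrees of freedom of this test, 11.7 came from the spread of other genes. The call was lost after upper-quartile scaling (log2 difference 0.95, adjusted p = 0.0550), after quantile normalization (0.99, adjusted p = 0.0704) and on the log2 of normalized recovered reads (1.49, adjusted p = 0.0751), with a difference of similar or larger size. Without ASC_C replicate 1 the log2 difference was 0.41, without ASC_C replicate 2 it was 1.57, and limma-trend then called none of the 14295 genes, as it did without either ASC_HFS library (2318 to 4538 genes had an unadjusted p under 0.05 in these 4 fits). The adipocyte markers took 0.462 and 0.323% of reads in ASC_HFS, against 0.104 and 0.453% in ASC_C, so that ASC_C replicate 1 was lowest in both, while ASC_C replicate 2 was level with the higher HFS library in the markers alone. Set against 1000 reads of these markers, Lipe had 15.3 and 17.1 reads in ASC_HFS and 12.7 and 10.5 in ASC_C, while Abhd5 had 40.4 and 57.6 in ASC_HFS and 100.2 and 33.0 in ASC_C. On this scale HFS lay above C for Lipe, with 15.3 and 12.7 as the nearest values, and overlapped C for Abhd5. Lipe rests on 413 and 55 reads in ASC_HFS and 44 and 347 in ASC_C, and values on this scale were not tested. The part of the adipocyte markers in the Lipe difference was not tested.

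The 2 partners of adipose triglyceride lipase had means on opposite sides, although neither passed the test. Abhd5 had 682 and 671 normalized reads in ASC_HFS, against 322 and 489 in ASC_C. Its HFS libraries were close together and above both C libraries, with a ratio of 1.67 and a log2 difference of 0.68 ± 0.28 (SE, limma-trend adjusted p = 0.102). G0s2 had 246 and 221 normalized reads in ASC_HFS, against 350 and 371 in ASC_C. Both HFS libraries were below both C libraries, with a ratio of 0.648 and a log2 difference of -0.51 ± 0.24 (limma-trend adjusted p = 0.157). The reads of G0s2 per read of Abhd5, a ratio chosen after the values were seen and given without a test, were 0.361 and 0.330 in ASC_HFS and 1.09 and 0.759 in ASC_C. In adipocytes the same ratio was 1.45 and 1.34 in AD_HFS and 1.56 and 1.74 in AD_C, so it was higher in adipocytes than in precursors.

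**Figure D2:**
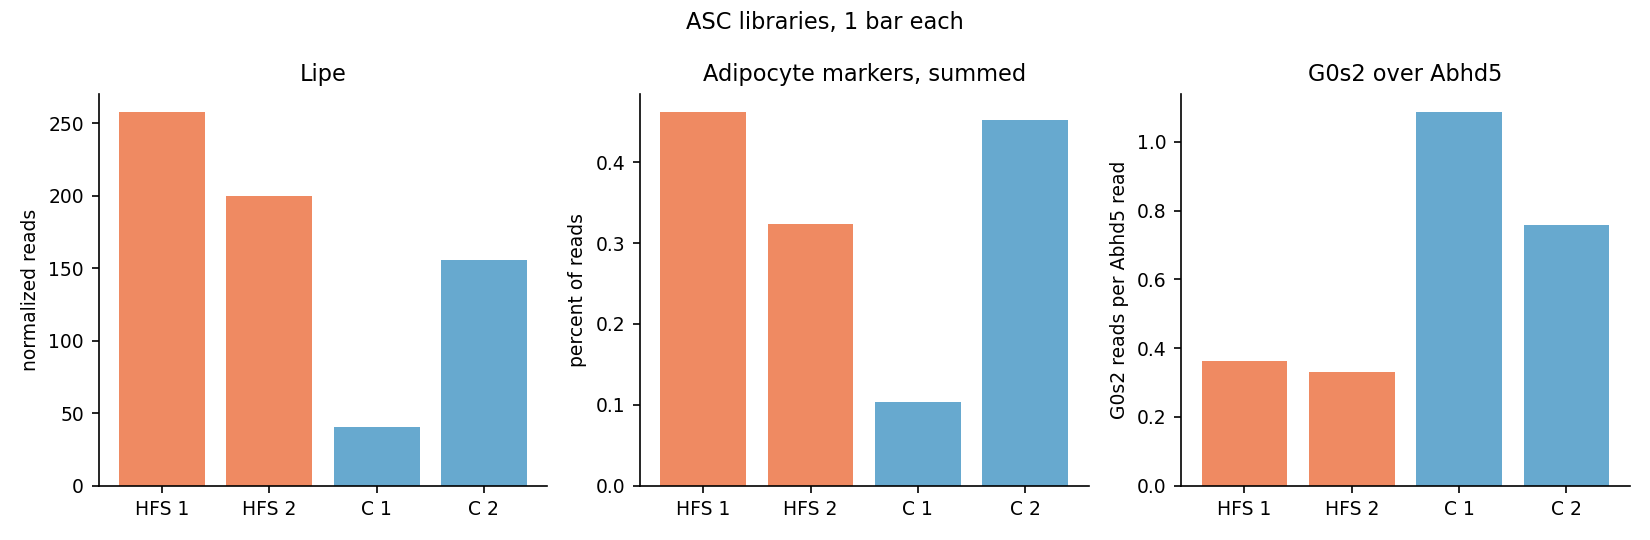
Normalized reads of Lipe, percent of reads on 9 adipocyte markers and reads of G0s2 per read of Abhd5, with 1 bar for each ASC library and HFS libraries on the left. ASC_C replicate 1 is lowest for Lipe (40.8) and for the markers (0.104%), and both HFS libraries are below both C libraries in the G0s2 to Abhd5 ratio.

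Mgll had 355 and 363 normalized reads in ASC_HFS, against 208 and 289 in ASC_C, with a ratio of 1.44 (log2 difference 0.45 ± 0.25, limma-trend adjusted p = 0.234). Among the genes of cAMP control, Pde3b had 47.4 and 47.1 normalized reads in ASC_HFS, against 26.9 and 35.9 in ASC_C. Its ratio was 1.51 (limma-trend adjusted p = 0.392). These values rest on 76 and 13 reads in ASC_HFS and 29 and 80 reads in ASC_C. The groups did not overlap for either gene, and neither passed the limma-trend test. Prkar2b had 112 and 102 normalized reads in ASC_HFS, against 114 and 76.7 in ASC_C, and here the groups overlapped (adjusted p = 0.765). Without ASC_C replicate 2 the log2 difference of Prkar2b was -0.064, against 0.12 with all 4 libraries. Adrb3 was at 13.1 and 7.25 normalized reads in ASC_HFS, against 1.85 and 3.14 in ASC_C. These are 23 reads over the ASC_HFS pair and 9 over the ASC_C pair, a ratio of 4.50 per size factor with an exact 95% counting interval of 2.01 to 11.1, and limma-trend gave adjusted p = 0.255.

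**Figure D3:**
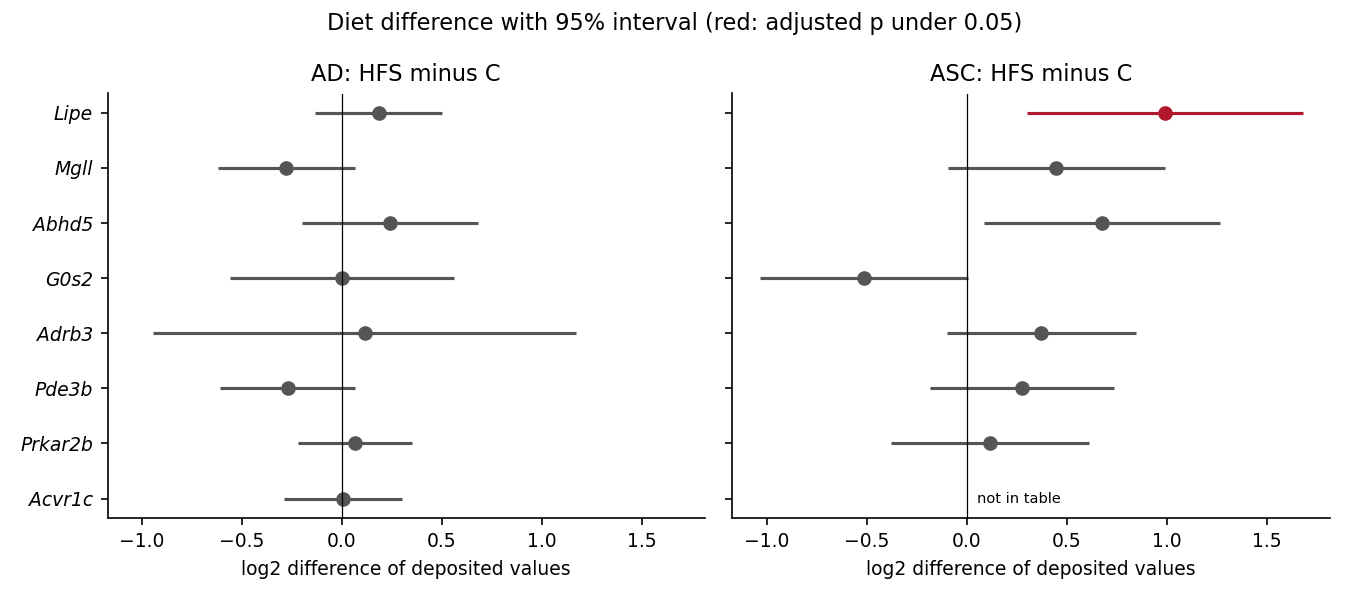
Log2 difference of deposited values, HFS minus C, with its 95% interval from limma-trend, for AD (left) and ASC (right). Lipe in ASC (red, 0.99) is the gene with an adjusted p under 0.05, and Acvr1c is not in the ASC table.

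Further genes of the pathway were read from 11 lists of 105 genes, of which 94 were measured in ASC. Limma-trend called 21 of the 94, where it called 19.1% of all genes. In ASC_HFS 19 of the 94 rose and 2 fell, against 9.41% higher and 9.70% lower among all genes. The lists were chosen with earlier results of these data known, so these counts are a description. Limma-voom tested 87 of the 94 and called 24, where it called 24.5% of all genes. In all 21 both HFS libraries lay on the same side of both C libraries, so leaving out 1 library could not turn their sign. The median log2 difference was 0.32 over the 94 genes. Of the 11 receptors, Gs genes and adenylyl cyclases that raise cAMP, 1 fell: Adcy5, an adenylyl cyclase, was at 81.7 and 109 normalized reads in ASC_HFS, against 184 and 197 in ASC_C (adjusted p = 0.0478). Adrb1, the gene of another beta-adrenergic receptor and named after its values were seen, was at 6.24 and 3.63 normalized reads in ASC_HFS, against 0 and 4.93 in ASC_C (adjusted p = 0.486).

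The lists of Gi signalling, the insulin branch, phosphodiesterases and protein kinase A subunits each held 2 or 3 genes that rose, where 9.41% of all genes rose. Of 11 Gi-coupled receptors and Gi subunits 3 rose and none fell. Hcar2, the receptor through which nicotinic acid and ketone bodies restrain lipolysis, had 349 and 395 normalized reads in ASC_HFS, against 52.8 and 74.0 in ASC_C, a ratio of 5.87 (adjusted p = 2.51e-04). The Gi subunit genes Gnai1 and Gnai3 had ratios of 3.41 and 2.14 (adjusted p = 0.0213 and 0.0249). Of 9 genes of the insulin branch that leads to Pde3b, the receptor gene Insr rose 4.52-fold and the adaptor gene Irs2 2.58-fold (adjusted p = 0.00979 and 0.0174). Of 7 other phosphodiesterases, Pde4b rose 2.29-fold and Pde8a 2.70-fold (adjusted p = 0.0365 and 0.0249). Of 7 other protein kinase A subunits and anchors, the anchor gene Akap13 rose 3.33-fold and Prkar2a, the relative of Prkar2b, 2.57-fold (adjusted p = 0.00321 and 0.0380). Hcar2 is also known from macrophages, whose markers took 0.288 and 0.312% of reads in ASC_HFS and 0.0906 and 0.0895% in ASC_C. Their part in these differences was not tested.

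Of 7 droplet proteins 4 rose. Plin2, the coat protein found on droplets of most cells, had 6785 and 11655 normalized reads in ASC_HFS, against 2420 and 2515 in ASC_C, a ratio of 3.74 (adjusted p = 0.00500). Cidec, which makes droplets fuse in fat cells, had 165 and 138 normalized reads in ASC_HFS, against 15.7 and 74.9 in ASC_C. Its ratio was 3.34 (limma-trend adjusted p = 0.0144), with ASC_C replicate 1 far below ASC_C replicate 2. Plin4 rose 4.03-fold and the caveolar gene Cavin1 3.16-fold (limma-trend adjusted p = 0.00552 and 0.00644). Plin1, the coat protein that binds the product of Abhd5, named after its values were seen, was at 198 and 145 normalized reads in ASC_HFS, against 87.1 and 140 in ASC_C (adjusted p = 0.252). The adipocyte marker list, whose shares are given beside Lipe, also holds Plin1, Cidec, Fabp4 and Acsl1, and its part in these differences was not tested. Of 9 genes for the exit or re-use of fatty acids and glycerol, the glycerol channel gene Aqp7 rose 5.13-fold and the acyltransferase gene Dgat2 2.24-fold (adjusted p = 0.0106 and 0.0208). Of 6 other acylglycerol hydrolases 1 rose and 1 fell. The carboxylesterase gene Ces1d had 39 and 4 reads in ASC_HFS, against 2 and 4 reads in ASC_C, and Pnpla6 had 44 and 0 reads, against 73 and 194 (adjusted p = 0.0389 and 0.0104). The ratio of mean normalized reads was 10.6 for Ces1d and 0.177 for Pnpla6. The summed reads, to which ASC_HFS replicate 1 gave most or all of the HFS reads, had a ratio of 12.6 for Ces1d (exact 95% counting interval 5.35 to 36.3) and 0.290 for Pnpla6 (0.206 to 0.400). Of 12 genes around ALK7, the signal transducer Smad3 and the inhibitory Smad7 rose 3.88-fold and 2.99-fold (adjusted p = 0.00398 and 0.0137). Of 9 transcription factors the 1 that rose was Irf4, a driver of lipase genes in mouse fat that is also known from immune cells, at 302 and 348 normalized reads in ASC_HFS, against 49.1 and 74.4 in ASC_C (adjusted p = 4.53e-04). None of 6 genes of the natriuretic peptide branch was called by limma-trend, 2 had an unadjusted p under 0.05, and limma-voom called 0.

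**Figure D4:**
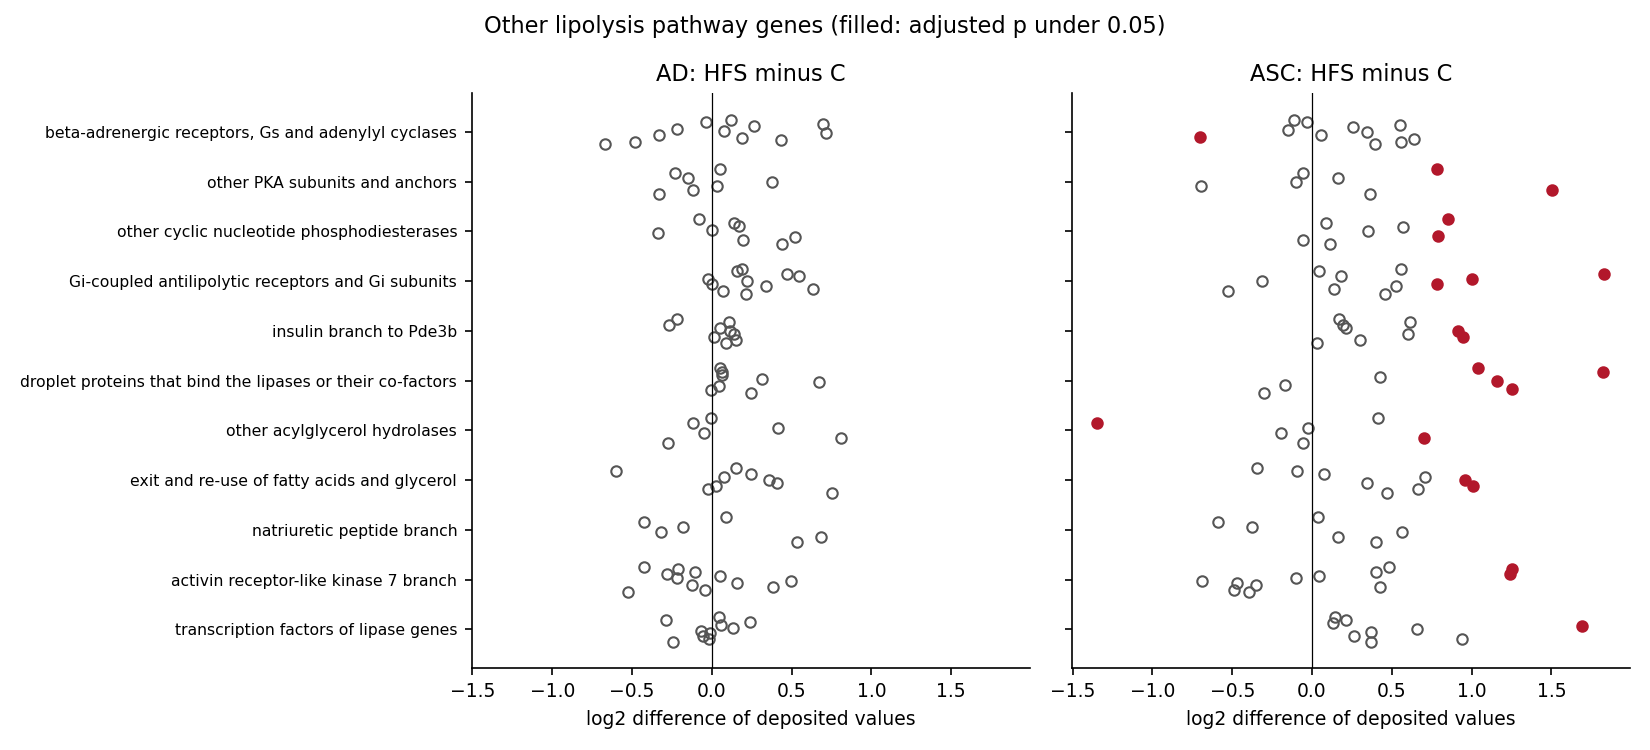
Log2 difference of deposited values, HFS minus C, for each measured gene of 11 pathway lists in AD (left, 98 genes) and ASC (right, 94 genes), with filled points for an adjusted p under 0.05. In ASC 19 filled points lie to the right of 0 and 2 to the left, and in AD no point is filled.

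The comparison of HFS with C in adipocytes asked whether cells differentiated from the 2 kinds of precursor differed. None of the 8 lipolysis genes was called in AD_HFS. By limma-trend it was 0 of 8, where 1.34% of all 18236 genes were called, with 0 at an unadjusted p under 0.05 (13.9% of all genes) and 0 by limma-voom (0.906%). The log2 differences ran from -0.28 to 0.24 with a median of 0.04, and the median over all genes was -0.01. The groups did not overlap for 4 of the 8, where this was so for 47.7% of all genes.

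The lipases and the partners of adipose triglyceride lipase had small differences in mean. Lipe had 56405 and 53036 normalized reads in AD_HFS, against 44859 and 51667 in AD_C, a ratio of 1.13 (log2 difference 0.18 ± 0.12, SE, limma-trend adjusted p = 0.582, 95% interval -0.14 to 0.50). Mgll had 64076 and 64093 normalized reads in AD_HFS, against 84509 and 71557 in AD_C, a ratio of 0.821 (log2 difference -0.28 ± 0.13, adjusted p = 0.445, 95% interval -0.62 to 0.06). The HFS libraries of Lipe were both above and those of Mgll both below the C libraries. Abhd5 had 47304 and 49376 normalized reads in AD_HFS, against 35282 and 47298 in AD_C (limma-trend adjusted p = 0.599), and the lower HFS library was level with the higher C library. G0s2 had 68380 and 66109 in AD_HFS, against 55013 and 82202 in AD_C, and its HFS pair lay between the C libraries (adjusted p = 0.999).

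The genes of cAMP control and Acvr1c differed no more clearly. Pde3b had 14437 and 15429 normalized reads in AD_HFS, against 19939 and 16336 in AD_C, a ratio of 0.823 (log2 difference -0.27 ± 0.13, limma-trend adjusted p = 0.453, 95% interval -0.61 to 0.07). Adrb3 had 1239 and 1050 normalized reads in AD_HFS, against 624 and 1672 in AD_C, and the spread of the C pair makes its interval the widest, -0.94 to 1.17. Prkar2b had 35104 and 35761 normalized reads in AD_HFS, against 31871 and 35937 in AD_C (adjusted p = 0.839). Acvr1c had 992 and 1005 in AD_HFS, against 957 and 1032 in AD_C (adjusted p = 0.990), and its interval was -0.29 to 0.30. Of the 98 further pathway genes measured in AD, limma-trend called 0, with 16 at an unadjusted p under 0.05 (13.9% of all genes), and limma-voom, which tested 97, called 0. Limma-trend called 51 of the 98 without AD_C replicate 1, where it called 39.0% of all genes, 72 without AD_C replicate 2, where it called 53.9%, and 0 without either AD_HFS library, where it called no gene.

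The AD_HFS libraries differed less from each other than the AD_C libraries. The chi-square of their reads over genes was 6.81 per degree of freedom for the AD_HFS pair and 297 for the AD_C pair. When 1 AD_C library was left out, the spread came from the AD_HFS pair, and the lone AD_C library was assumed to vary like it. The calls of these fits compare the AD_HFS pair with a single library and carry no information on diet. Without AD_C replicate 1 limma-trend called 4 of the 8 genes, where 39.0% of all genes were called, and without AD_C replicate 2 it called 7, where 53.9% were called. Adrb3 then had a log2 difference of -0.48 without AD_C replicate 1 and 0.71 without AD_C replicate 2, and G0s2 had -0.29 and 0.29. Without either AD_HFS library limma-trend called 0 of the 8 and 0 of all 18236 genes, so these fits say nothing about the set.

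Whether the diet difference itself differed between adipocytes and precursors was tested in 1 limma-voom fit of the recovered reads of all 8 libraries. None of the 7 genes that both tables list was called, where 9.40% of 13860 genes were called, and 1, Mgll, had an unadjusted p under 0.05 (29.9% of all genes). By limma-trend on the deposited values of all 8 libraries it was also 0. The difference of differences was negative for 6 of the 7 genes, meaning a lower HFS minus C difference in AD than in ASC. For Lipe it was -1.18 ± 0.58 on the log2 scale (SE, limma-voom adjusted p = 0.212), for Mgll -0.78 ± 0.30 (adjusted p = 0.120) and for Pde3b -0.84 ± 0.44 (adjusted p = 0.233). G0s2 was the exception at 0.60 ± 0.33 (adjusted p = 0.260). Leaving out 1 library gave 1 call of 7 in each of 3 fits. Without ASC_C replicate 2 it was Lipe (-2.38, limma-voom adjusted p = 0.0395), where 5.62% of all genes were called. Without AD_C replicate 1 it was Adrb3 (-2.61, adjusted p = 0.0439), where 15.1% were called, and without AD_C replicate 2 it was G0s2 (0.88, adjusted p = 0.0330), where 23.1% were called.

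Genes with a profile like that of the lipolysis set were found by the root mean square distance between log2 RPM over the 8 libraries, each centred on its own mean, among 7346 other genes with at least 10 reads in every library. The libraries share the stage difference, so likeness mostly reads stage. Nearest to the mean profile of the 7 genes were Sik2 at 0.170, Mgst1 at 0.220, Aox1 at 0.226, Tgfbr3 at 0.252 and Cdo1 at 0.257 log2 units. The nearest gene was Thrsp for Lipe (0.250), Tgfbr3 for Mgll (0.112), Itpk1 for Abhd5 (0.157) and Snrk for Adrb3 (0.411). For G0s2, Pde3b and Prkar2b it was a mitochondrially encoded gene, ND5, ND4L and ND2.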

How the data were processed

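The submitters' processing notes name the tools STAR, featureCounts, FastQC and DESeq2 and the genome mRatBN7.2 (rn7); versions and settings are not given in the sources used here. The labels name both polyA RNA and a kit for rRNA depletion. The authors deposited the ASC and AD libraries as separate tables. In both, what the authors deposited is a signal, named normalized counts: the antilog, to base 2, of variance-stabilized counts, scaled within each table. Each table has a single lowest value V0 (34.7 in ASC, 107 in AD), and (V - V0) squared over V returned whole reads for 100% of values (tolerance 1e-06), from which reads, normalized reads and RPM were computed.

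The main test was limma-trend (R 4.3.3 with limma 3.58.1) applied to log2(value + 1) within a table, two-sided, at 0.05 after Benjamini-Hochberg adjustment across that table. A mean value of at least 10 was required, which removed no gene. Limma drew the spread of each gene toward that of other genes. In ASC 11.7 of the 13.7 degrees of freedom of a test came from other genes, and in AD 2.77 of 4.77. With 2 libraries a group an exact permutation test cannot go below p = 0.333, so none was used. The diet by stage difference used limma-voom on recovered reads of genes with at least 10 reads in 2 libraries. The fits were tested on simulated data with 1 dispersion per table, shared by all genes and both diets. Of genes changed 2-fold and 4-fold, 29% and 79% were recovered in ASC, and 85% and 94% in AD. For diet by stage these shares were 27.1% and 86.7%. In the data, the chi-square per degree of freedom was 297 for the AD_C pair and 6.81 for the AD_HFS pair. The simulated AD shares may therefore overstate recovery in these data.

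The lipolysis genes, pathway lists and marker lists were chosen with earlier results of these data known. All 8 genes were named, and of each pathway list up to 4 called genes. Marker lists covered adipocytes, mesenchymal progenitors, macrophages, endothelium, smooth muscle and pericytes, epithelium, lymphoid and mast cells and thermogenic adipocytes. Alternatives were other pseudocounts, filters, scalings, scales, fits, a replicate block and each library left out. No transcript lengths were at hand, so levels are not compared between genes. Promoter sequences are from RefSeq (GRCr8), a later build than that of the authors. Tables and plots used pandas 2.3.3, matplotlib 3.10.9 and numpy 2.4.6 under Python 3.11.15.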

Additional observations from a re-analysis of the deposited data

Results flagged for a closer look

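For Mgll and Pde3b both HFS libraries were below both C libraries in AD and above both in ASC. In ASC, Pde3b rests on few reads, 13 in ASC_HFS replicate 2 and 29 in ASC_C replicate 1. The groups did not overlap for 47.7% of all genes in AD and 61.0% in ASC, and by limma-trend neither gene passed in AD (adjusted p = 0.445 for Mgll and 0.453 for Pde3b) or in ASC (0.234 and 0.392). The difference of differences was -0.78 for Mgll and -0.84 for Pde3b on the log2 scale. By limma-voom neither passed (adjusted p = 0.120 and 0.233). Groups of 2 libraries were too small to look for a library that stands apart from its group.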

How the results depend on the processing

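The number of ASC genes called, 1 of 7, was 0 after upper-quartile scaling, 0 after quantile normalization, 0 on the log2 of normalized recovered reads and 0 to 0 with each library left out in turn; the cause was not tested. The other settings with all 4 libraries gave 1. The AD count of 0 was 0 to 7 and the diet by stage count of 0 was 0 to 1 with each library left out, and 0 under every other setting run. Signs near 0 turned: in AD, G0s2 was 0.0056 after upper-quartile scaling, 0.042 after quantile normalization and 0.0057 by limma-voom, and Acvr1c was -0.068 after quantile normalization and -0.0020 by limma-voom. With libraries left out, AD log2 differences ran from -0.29 to 0.29 for G0s2, -0.48 to 0.71 for Adrb3, -0.020 to 0.15 for Prkar2b and -0.040 to 0.051 for Acvr1c, Prkar2b in ASC from -0.064 to 0.30, and its diet by stage difference from -0.45 to 0.13. Over all genes the AD count of 244 was 95 after upper-quartile scaling, 112 on log2 recovered reads, 147 by limma-voom, 423 in a joint fit of the 8 libraries and 661 with the replicate block. The labels do not say that replicate numbers pair libraries, and same-numbered deviations correlated at 0.0014 in AD and -0.12 in ASC. With the replicate block 1 ASC gene, 0 AD genes and 0 diet by stage genes of the set were called, so it changed no call. The 7 genes were higher in AD under all 3 denominators, but folds on within-table normalized reads, whose scale follows the depth of each table, ran from 71.5 to 578. Adrb3 in ASC is limited by depth.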
